A study of Mus musculus with 24 samples.

Results

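The genes described here encode proteins that bind fatty acids, fatty acyl-CoA or retinoic acid inside cells, together with the surface fatty acid receptor Cd36. The set has 7 members of the 19938 genes measured: Cd36, Fabp3, Fabp4, Fabp5, Dbi, Crabp1 and Crabp2. The genes were chosen by symbol, with measured values of these arrays already known, and each was read from the probe set selected on its mean signal over 24 arrays, the highest of that symbol. The falls of members were thus in view when the set was drawn up, and their p-values are no independent evidence. All 7 were measured, and no filter on low signal was applied. RNA came from 4T1, a murine mammary carcinoma line, in RPMI-1640 medium with 3 mM glucose. Control cells received no lactic acid, and the other groups received 20 mM lactic acid for 1, 3, 4, 5, 7, 9 or 11 days. The labels count 3 biological replicates, with an array each, in every one of the 8 groups, and this number limits the precision. Low glucose was common to every group, and the labels do not give the time the control cells spent in culture, so lactic acid and time cannot be told apart in any comparison with control. The study sought genes that change over time while lactic acid extends the life of glucose-starved cells.

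Fatty acids are poorly soluble in water. Cd36 helps to take them up at the cell surface, fatty acid-binding proteins (FABPs) carry them through the cytosol, and the product of Dbi, also called acyl-CoA-binding protein, holds the activated acyl-CoA esters that feed oxidation and membrane lipid synthesis. The cellular retinoic acid-binding proteins Crabp1 and Crabp2 belong to the same structural family as the FABPs and carry retinoic acid. Crabp2 delivers it to the nuclear retinoic acid receptors, and Fabp5 can carry fatty acids or retinoic acid to the nuclear receptor PPAR delta.

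Values are the authors' log2 signals, on which a difference of 1 is a 2-fold change, and the log base was inferred from the range of the table (0.96 to 14.71). A gene was called changed when its adjusted p in limma, corrected by the Benjamini-Hochberg method over all genes, was below 0.05. The array of day 1 replicate 1 stood apart: its SD across genes was 1.94, against 2.16 to 2.34 on the other 23 arrays. Its genes of high signal read low and its genes of low signal read high, so the members' day 1 tests, and the day 1 values of the named pathway genes, are also given without it. The median over genes lay between 5.01 and 5.26 on every array. RNA was taken from whole cultures, in which fewer cells of a kind and less RNA per cell cannot be told apart.

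Fabp5, the epidermal-type fatty acid carrier, and Dbi were the members called lower than control, and no member was called higher on any day. For day 1 the count of members called lower was 1 of 7 (Dbi), where 4.81% of all genes were called, 2.52% lower and 2.3% higher. Without replicate 1 of day 1 in the fit it was again Dbi alone, with 4.59% of all genes called. For each later day it was 2 of 7, Fabp5 and Dbi. Of all genes, the day 3 arrays gave 26.3% called (13.9% lower, 12.4% higher), those of day 4 gave 26.9% (12.9% lower, 14% higher) and those of day 5 gave 27.5% (10.3% lower, 17.2% higher). The shares were 25.4% for day 7 (9.44% lower, 16% higher), 27.2% for day 9 (14% lower, 13.1% higher) and 25.8% for day 11 (11.8% lower, 14% higher). The median difference over the 7 members was -0.21 on day 11, against -0.03 over all genes, and 0.04 on day 3, against 0.07. Read against the shares called in either direction from day 3 on (25.4% to 27.5%), 2 of 7 members called is near the background. Both members were called lower, and the shares of all genes called lower on those days were smaller, 9.44% to 14%. These shares are of the fit to all arrays. Without replicate 1 of day 1, 31.9% (day 11) to 36.1% (day 5) of all genes were called in either direction from day 3 on. With arrays centred on their medians, the calls over all genes shifted from 2477 higher and 2762 lower to 1574 and 2803 on day 3, and from 2621 and 2793 to 1754 and 3385 on day 9. On day 1 cyclic loess changed 458 higher and 502 lower to 921 and 663.

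In control cells Fabp5 read 8.24, 8.55 and 8.70 on the 3 arrays, a mean of 8.50 (SD 0.24, n = 3). The day 1 arrays read 7.47, 8.51 and 8.40, and those of day 3 read 6.07, 5.89 and 5.95. The control and day 1 arrays overlapped, while all 3 arrays of day 3 lay below all of both. Day 4 gave 5.81, 5.67 and 5.64, day 5 gave 5.48, 5.63 and 5.43, and day 7 gave 5.31, 5.57 and 5.89. Signals of 5.49, 5.97 and 5.92 followed for day 9 and of 5.78, 5.85 and 6.08 for day 11. Every array from day 3 on lay below every control array, and the days from 3 to 11 overlapped along the order of their means, which ran day 3, 11, 9, 4, 7 and 5 from high to low.

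Against control, the log2 signal of Fabp5 on day 3 fell by 2.53, or 5.76-fold (SE 0.20, limma adjusted p = 2.27e-09). The lowest mean was that of day 5, where Fabp5 fell by 2.99 (SE 0.20, 7.93-fold, limma adjusted p = 1.69e-10). On day 11 the difference was -2.60 (SE 0.20, 6.05-fold, limma adjusted p = 6.43e-10), and 116 genes had a larger fall. On day 5 only 2 genes had a larger fall, and on day 3 there were 11. On day 1 the difference was -0.37 (SE 0.20, limma adjusted p = 0.293), and without replicate 1 of day 1 it was -0.05 (adjusted p = 0.930).

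For Dbi, the acyl-CoA-binding protein gene, the control arrays read 9.37, 9.51 and 9.53 (mean 9.47, SD 0.09, n = 3), and the day 1 arrays read 8.47, 9.05 and 8.92. These groups did not overlap, and the lowest of the day 1 arrays was the one that stood apart. Day 3 read 7.67, 7.60 and 7.42, day 4 read 7.70, 7.75 and 7.64, and day 5 read 8.04, 8.10 and 8.21. Day 7 read 7.66, 7.74 and 7.75, day 9 read 7.85, 7.84 and 7.89, and day 11 read 7.86, 7.94 and 7.81. The arrays of day 5 lay above every other array from day 3 on. By mean the order was control, day 1, day 5, day 11, day 9, day 7, day 4 and day 3, and neighbours overlapped only between days 11 and 9, 7 and 4, and 4 and 3.

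**Figure D1:**
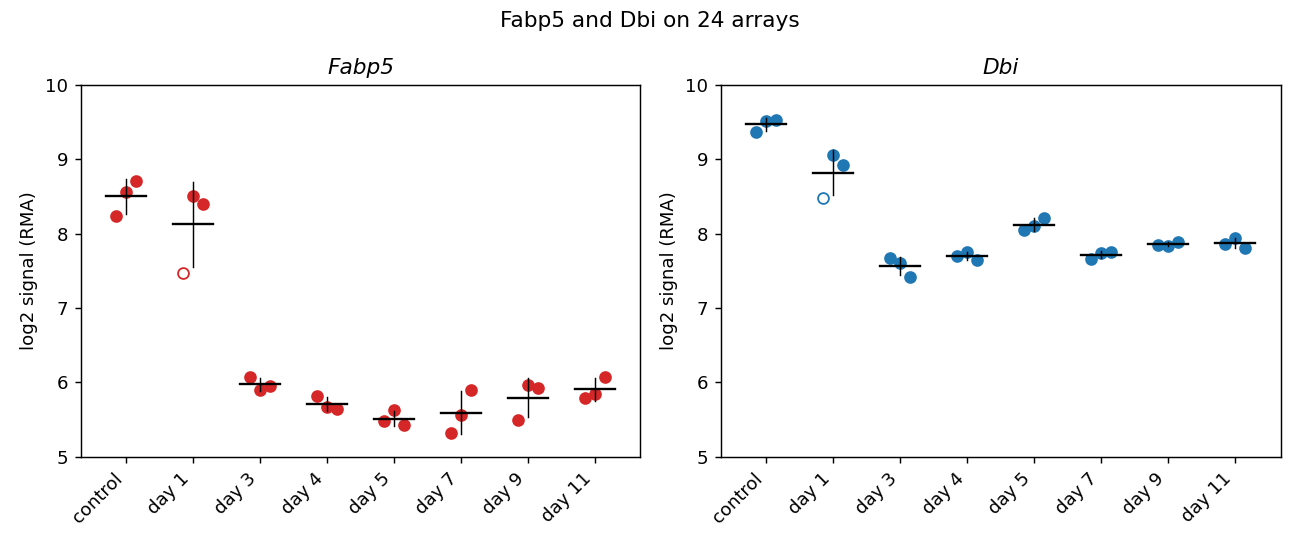
Signal of Fabp5 and Dbi on every array, on a log2 axis, by group. Points are single arrays, bars the mean and lines the SD of 3 arrays, and the open point is replicate 1 of day 1. Fabp5 is near 8.50 in control and at or below 6.08 on every array from day 3 on, while Dbi starts to fall on day 1 and has its lowest mean on day 3.

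On day 1 the log2 signal of Dbi fell by 0.66, or 1.58-fold (SE 0.12, limma adjusted p = 0.0023). Without replicate 1 of day 1 the fall was 0.49 and stayed called (limma adjusted p = 0.00512), whereas a fit of the 6 arrays of control and day 1 alone did not call it (adjusted p = 0.372). On day 3 Dbi fell by 1.91 (SE 0.12, 3.75-fold, limma adjusted p = 6.97e-11), and on day 5 the difference was -1.35 (SE 0.12, 2.56-fold, limma adjusted p = 1.04e-08). On day 11 it was -1.60 (SE 0.12, 3.03-fold, limma adjusted p = 3.73e-10).

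Most of the fall of both genes lay between days 1 and 3. In this step Fabp5 dropped by 2.15 (SE 0.20, limma adjusted p = 2.24e-08) and Dbi dropped by 1.25 (SE 0.12, limma adjusted p = 3.14e-08), while 27.3% of all genes were called and 13.7% were called lower. Without replicate 1 of day 1 the differences were -2.48 and -1.42. Between days 3 and 11 no member was called, where 13.6% of all genes were (8.33% higher on day 11, 5.32% lower). That split of 1660 higher and 1061 lower was 1485 and 1461 under cyclic loess and 1621 and 500 with centred arrays. Fabp5 differed there by -0.07 (limma adjusted p = 0.851). Dbi was higher on day 11 by 0.31 (SE 0.12, limma adjusted p = 0.0952) with arrays that did not overlap. This difference was called when replicate 1 of day 1 was left out of the fit (limma adjusted p = 0.0130), which then called 24.9% of all genes. An F test over the 7 treated days called Fabp5 (limma adjusted p = 3.07e-09) and Dbi (2.05e-07) and none of the other 5 members (0.140 to 0.452), with 44.8% of all genes called. Over days 3 to 11 alone, a test chosen after the data were seen, it called Dbi (limma adjusted p = 0.0146) and not Fabp5 (0.344), with 31% of all genes called.

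Fabp5 has another probe set, which gave a similar course. It read 8.24 in control (SD 0.22), 7.82 on day 1, 5.65 on day 3, 5.39 on day 5 and 5.66 on day 11. Its lowest mean was that of day 7 (5.382), just below that of day 5 (5.387), and its means of days 3 to 11 had another order. RefSeq's gene table for GRCm38.p6 lists the copies Fabp5l2 for Fabp5 and Gm12222, also known as Dbi-ps, for Dbi, whose sequences were not compared here. Which copy each probe set reads is not given in the sources used here, so the share of each copy is uncertain.

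The other 5 members read below the median of all genes on 24 of 24 arrays. None was called on any day: the 35 differences from control lay between -0.32 and 0.36, with limma adjusted p from 0.141 to 0.9996. None was called without replicate 1 of day 1 in the fit either, though some came close. There the limma adjusted p was 0.0540 for Fabp4 on day 5 (0.24), 0.0580 for Fabp3 on day 4 (-0.30) and 0.0848 for Crabp1 on day 5 (-0.32). In the fit to all arrays the 95% intervals of these members reached from -0.69 to 0.67, so a fall beyond 1.61-fold or a rise beyond 1.59-fold lay outside every interval on this signal scale. Weak signals can be compressed on arrays, and smaller changes of these members are within the intervals. The arrays of control and treated cells were apart in 6 of the 35 comparisons, or in 42.4% of comparisons over all genes, and 2 had an unadjusted p below 0.05.

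Cd36, the surface fatty acid receptor, read 2.24, 2.02 and 2.17 in control cells, and its group means ranged from 2.14 in control to 2.50 on day 1. The day 1 difference of Cd36 was 0.36, and 0.13 without replicate 1, which lay 0.69 above the mean of the other day 1 arrays. On day 11 Cd36 differed from control by 0.05 (SE 0.15, limma adjusted p = 0.893), a value that took a negative sign under cyclic loess and without replicate 2 of the control.

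Fabp3, the carrier of heart and skeletal muscle, had group means from 3.78 on day 4 to 4.22 on day 1, and its day 11 difference was -0.21. Another probe set of Fabp3 had its highest mean on day 5 (4.01). It read 3.89 in control, 3.84 on day 1, 3.59 on day 4 and 3.65 on day 11. Fabp4, the carrier of adipocytes and macrophages, had means from 2.39 on day 7 to 2.70 on day 5, with a day 11 difference of 0.19. Crabp1 had means from 4.30 on day 5 to 4.70 on day 1, and Crabp2 from 3.90 on day 4 to 4.35 on day 1. Their day 11 differences were -0.22 and -0.18. In the order of group means of each of these 5 genes, every pair of neighbours overlapped. Without replicate 1 of day 1, the day 1 differences from control were -0.03 for Fabp3, 0.04 for Fabp4, -0.16 for Crabp1 and 0.12 for Crabp2. That array lay above the mean of the other day 1 arrays by 0.50 for Fabp3, 0.54 for Fabp4, 0.73 for Crabp1 and 0.30 for Crabp2, and below it by a difference of -0.98 for Fabp5 and -0.51 for Dbi.

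**Figure D2:**
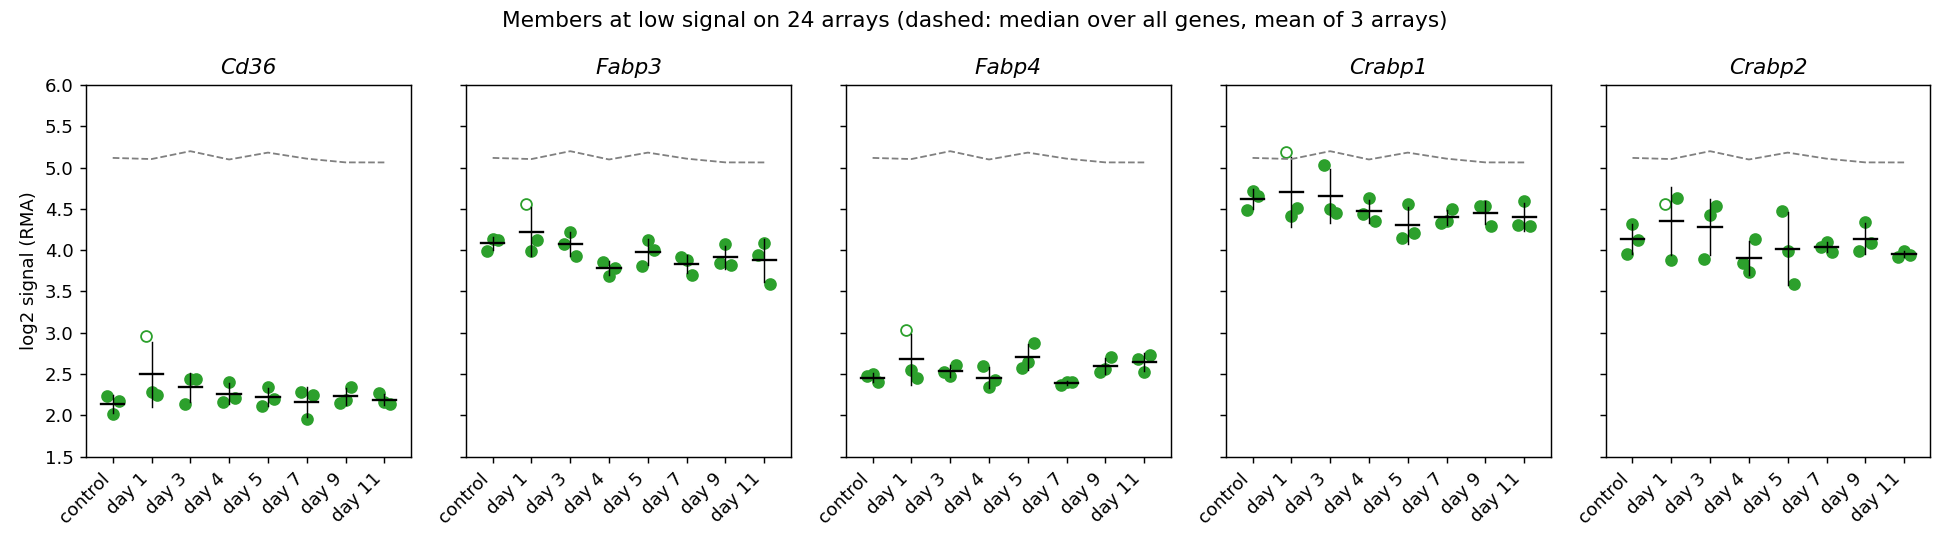
Signal of Cd36, Fabp3, Fabp4, Crabp1 and Crabp2 on every array, on a log2 axis, by group. Points are single arrays, bars the mean and lines the SD of 3 arrays, open points replicate 1 of day 1, and the dashed line the median over all genes. Group means of each gene stay within 0.36 of control.

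**Figure D3:**
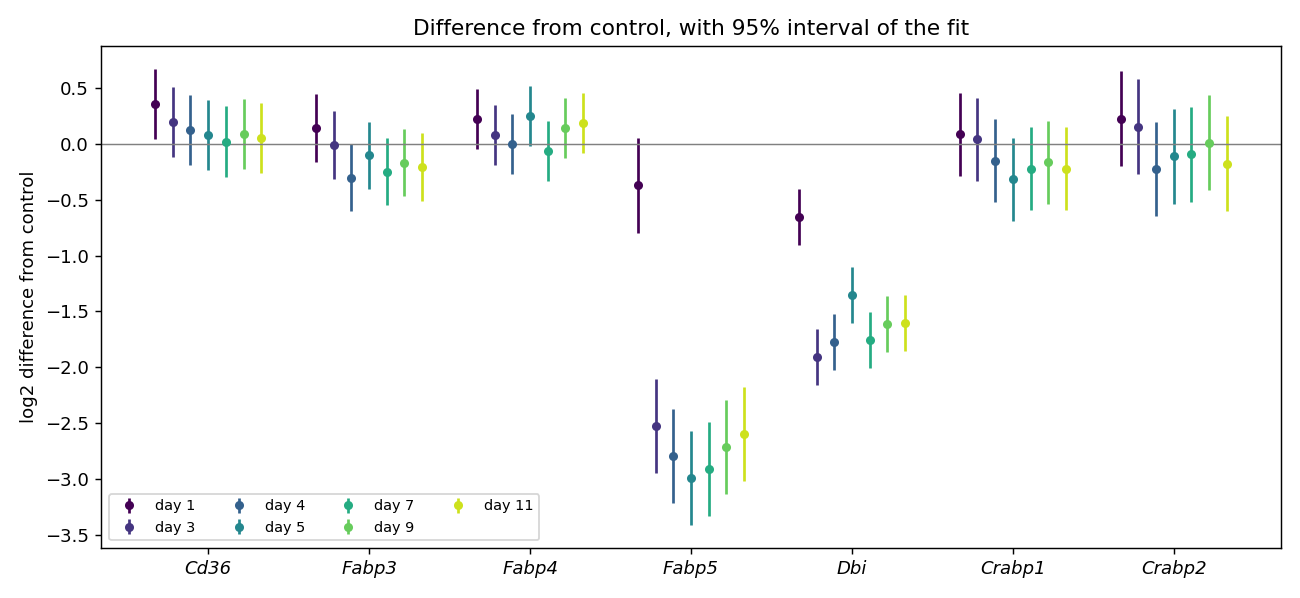
Difference from control of each member on each treated day, on the log2 scale, with the 95% interval of the fit. Fabp5 and Dbi lie far below 0 from day 3 on, and the differences of the other 5 members lie between -0.32 and 0.36.

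Fabp5 lies in a cluster of FABP genes: in the RefSeq gene table it is followed by Pmp2, Fabp9, Fabp4 and Fabp12 as the next protein-coding genes. Pmp2 (the myelin carrier), Fabp9 and Fabp12 were not called on day 3 or day 11. In control they read 2.81, 2.75 and 3.55, and they lay below the array median on 24 of 24 arrays. Such low signals leave little room for a fall like that of Fabp5, so the missing calls do not set Fabp5 apart. The wider list of intracellular lipid-binding relatives, with the FABPs of liver, gut and brain and the retinol-binding proteins, had 9 of 10 genes measured. Each measured gene of this list lay below the array median on 24 of 24 arrays. On day 11 none was called higher or lower, and the median difference was -0.17. On day 3 only Rbp2, an intestinal retinol carrier, was called, with a difference of -0.50.

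Over the 24 arrays Fabp5 and Dbi had a Pearson correlation of 0.920, or 0.922 without replicate 1 of day 1, as a description of arrays that share groups and treatment. The genes most like Fabp5 were Pomp, a proteasome assembly factor (r = 0.980), Me2, the mitochondrial malic enzyme (0.978), and the histone variant gene H2ax (0.971). On day 11 they differed from control by -1.08, -1.30 and -2.56. The genes most like Dbi were Tmpo, which encodes lamina-associated proteins (0.977), Dnajc9, a histone co-chaperone (0.968), and Cks2, a partner of cyclin-dependent kinases (0.963), with day 11 differences of -1.03, -1.43 and -2.57. Lower day 11 values in the genes most like Fabp5 and Dbi follow from choosing them by correlation over the same arrays, and are no separate result. The patterns of the 5 members of low signal had looser likenesses. The leading one for Cd36 was the leukocyte gene Ptprc, with r = 0.864, which was 0.641 without replicate 1 of day 1. The leading ones were Map10 for Fabp3 (0.864), Adam30 for Fabp4 (0.837), Slc25a41 for Crabp1 (0.802) and Wfdc8 for Crabp2 (0.730). Without replicate 1 of day 1 these were 0.777, 0.716, 0.650 and 0.685.

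Among genes that handle fatty acids ahead of these carriers, 15 of 17 on the list of uptake and activation were measured. On day 11 none was called higher and 4 were called lower, with a median of -0.20. Scarb1, a lipoprotein receptor, differed by -1.54 (-0.13 on day 1, or -0.03 without its replicate 1, and -1.28 on day 3), and the acyl-CoA synthetase Acsl5 by -0.96 (-0.19, or 0.10 without that array, and -0.77). The others were Got2 (-0.94) and Acss2 (-0.83). On day 3 the list had 1 gene called higher and 5 lower.

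Of the 7 acyl-CoA-binding relatives of Dbi, all measured, 3 were called higher and none lower on day 11, with a median of 0.42. Eci2, a peroxisomal isomerase with an acyl-CoA-binding domain, differed by 0.46 (0.37 on day 1, 0.33 on day 3) and Acbd4 by 0.44 (-0.39 and 0.14). Neither was called on day 1, but without replicate 1 of day 1 Eci2 was called higher there (0.66) and Acbd4 lower (-0.45). Acbd3, a Golgi protein, differed by 0.42. The count fell to 1 or 2 when an array was left out, and Eci2 lost its call without each of 5 of the 6 arrays compared, all but replicate 3 of the control (limma adjusted p up to 0.168).

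Of 17 genes of lipid droplets and lipolysis, 3 were called higher and 2 lower on day 11, with a median of -0.08. Plin2, the coat protein of droplets, rose already on day 1 by 0.90 (0.89 without replicate 1 of that day) and read 0.89 above control on day 3 and 1.61 above it on day 11. Fitm2, which helps droplets to form, differed by 0.40 on day 11 (0.16 and 0.20 earlier), and the lipase gene Pnpla2 by 0.37. Without replicate 1 of day 11 the count of genes called higher was 1, and Fitm2 lost its call (limma adjusted p = 0.0522). Dgat2, which makes triglyceride, differed by -0.65 (0.35 and -1.03 earlier) and Abhd5, an activator of lipolysis, by -0.49 (-0.15 and -0.37). With replicate 1 of day 1 left out, the day 1 differences were 0.04 for Fitm2, 0.49 for Dgat2 and -0.16 for Abhd5, none of them called.

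The PPAR list, with factors that FABPs can serve and their targets, had 17 of 20 genes measured, of which 5 were called higher and 2 lower on day 11, with a median of -0.003. The thioesterase Acot2 differed by 3.46 (0.18 on day 1, 1.98 on day 3) and Cpt1a, which admits fatty acids to mitochondria, by 1.22 (1.59 and 1.27). Their day 1 differences were 0.32 and 1.77 without replicate 1 of that day. The other genes called higher were Acot1 (0.99), Acadl (0.80) and Acadm (0.59). Ppargc1b differed by -0.39 (-0.07 and -0.26 earlier) and Ppard, the receptor that Fabp5 can serve, by -0.36 (0.21 and -0.27), with day 1 differences of 0.06 and 0.24 without that array. Leaving out single arrays ended the call of Ppargc1b for each of the 6 arrays except replicate 2 of day 11 (limma adjusted p up to 0.189), and that of Ppard without replicate 2 of day 11 (0.0629).

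The retinoid list, the genes around Crabp1 and Crabp2, had 22 genes measured, of which 3 were called higher and 1 lower on day 11, with a median of -0.01. Tgm2, a transglutaminase that retinoic acid induces in many cells, differed by 1.17 on day 11 and by 1.09 on day 3, after a difference of -1.04 on day 1. Dhrs3, a retinal reductase, differed by 0.72 (-0.06 and 0.54 earlier), a call that was lost without replicate 1 or 3 of the control or of day 11 (limma adjusted p up to 0.0766). Rarg, a retinoic acid receptor, differed by 0.62. Rdh11, a retinol dehydrogenase, differed by -1.06 (-0.57 and -1.02). Leaving out replicate 1 of day 1, the day 1 differences were -0.99 for Tgm2, which stayed called, -0.34 for Dhrs3 and -0.25 for Rdh11. Over all genes, 14% were called higher and 11.8% lower on day 11, and the median difference was -0.03.

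**Figure D4:**
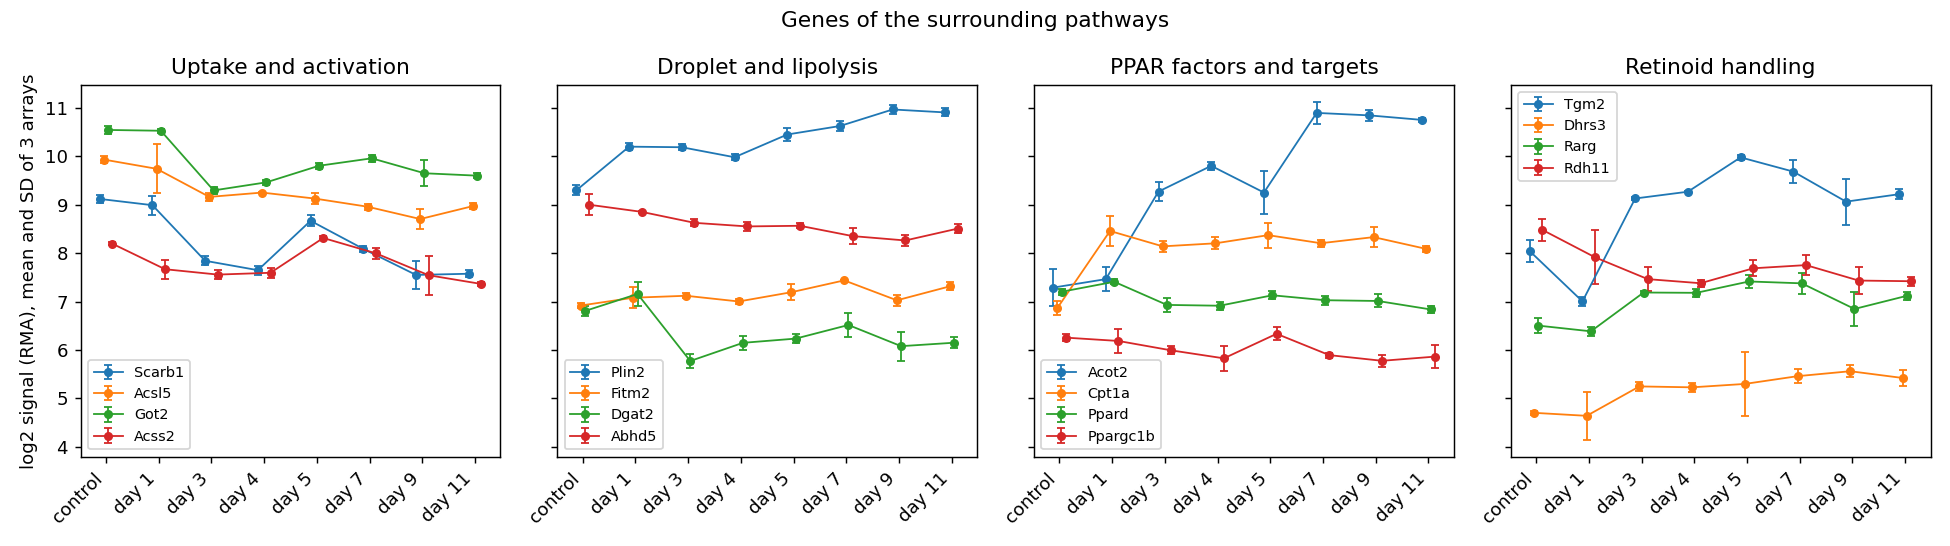
Mean signal and SD of 3 arrays, on a log2 axis, of 4 genes from each of the lists of uptake and activation, droplets and lipolysis, PPAR factors and targets, and retinoid handling, by group. Plin2 and Acot2 are higher on day 11 than in control, and Scarb1 and Rdh11 are lower on day 11 than in control.

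The cells were also read for markers of cells that could carry these genes. Of 9 epithelial genes, Krt8 and Krt18, keratins of simple epithelium, were high in control at 11.12 and 11.05. With Krt7 they lay above the array median on every array, while Krt19 and Cdh1 were below it on 1 array each and Cldn4 on 3. Epcam, Cldn7 and Esrp1 were below it on 24 of 24 arrays. On day 11 Cldn4 (1.73), Epcam (0.63) and Cdh1 (0.45) were called higher and Krt19 (-0.66) and Krt8 (-0.58) lower, and the mean log2 signal of the list was 6.46 to 6.49 in control and 6.59 to 6.65 on day 11.

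Of the adipocyte list 7 of 9 genes were measured. Lipe, a lipase gene that other cells also use, lay above the array median on every array, Retn was below it on 23, and Adipoq, Lep, Plin1, Cidec and Pck1 were below it on 24 of 24. None was called on days 1, 3, 9 or 11, 1 was called higher and 1 lower on each of days 4 and 7, and 1 was called higher on day 5. On day 7 these were Lipe (0.63) and Pck1 (-0.47). The mean of the list lay between 4.16 and 4.35 in control and between 4.08 and 4.22 on day 11, and within day 1 it was 4.59 on replicate 1 against 4.05 and 4.13 on the others.

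All 9 endothelial genes lay below the array median on 24 of 24 arrays and none was called against control on any day, with list means of 3.77 to 3.88 in control and 3.70 to 3.80 on day 11. Of 11 leukocyte and macrophage genes, Cd68 and Cd14 lay above the array median on every array and the other 9, Ptprc among them, below it on all 24. Cd14 was called lower on day 1 (-0.57, or -0.56 and not called without replicate 1 of that day) and higher on day 11 (0.48), Fcer1g was called lower on days 7 (-0.61) and 11 (-0.56), and Cd3e lower on day 7 (-0.49). The list also had 1 gene called lower on day 4 and 1 higher on day 5. The list mean was 4.02 to 4.06 in control and 3.90 to 4.13 on day 11.

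Of 9 fibroblast genes, Col1a1, Col3a1 and Pdgfra lay above the array median on every array, Pdgfrb was below it on 3 arrays, Col1a2 on 5 and Thy1 on 17, and Dcn, Lum and Fap were below it on 24 of 24. On day 11 Pdgfra (1.79) and Pdgfrb (1.32) were called higher, and on day 3 Pdgfra (2.42), Pdgfrb (1.05) and Thy1 (0.57). The list mean was 4.55 to 4.67 in control and 4.90 to 4.97 on day 11. The part of these markers in the members' values was not tested.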

How the data were processed

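RNA of 24 samples was read on single-channel Affymetrix arrays. The deposited table holds the authors' log2 signals per probe set, and the submitters' processing notes name RMA and version 1.1 of Affymetrix Expression Console; the settings used there are not given in the sources at hand. Of 35557 probe sets, 21789 had 1 gene symbol, 1621 several and 12147 none in a platform annotation of 2016. Each of 19938 genes was read from its probe set with the highest mean.

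Group means were fitted to all 24 arrays with lmFit and eBayes (limma 3.58.1, R 4.3.3), with p-values adjusted by Benjamini-Hochberg over all genes. Simulated data for day 11 had independent noise and log2 changes of 0.5 in 67 genes, of 1 in 67 and of 2 in 66. There the fit recovered 95.5% of changes of 1 and 16.4% of those of 0.5, with 12 false calls over 19938 genes. Far more genes, 5143, were called on day 11 in the measured data, so these shares do not measure the power there. The labels do not say whether replicates were separate cultures, so p-values may cover technical spread alone. The main fit did not pair arrays by replicate number. With group means removed, 16 of 84 same-numbered pairs correlated over 0.1 (median r -0.001). Differently numbered pairs were not compared, so this does not settle whether replicates were paired.

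Members, lists and tests were chosen with earlier results of these data known. All members were named, with the 3 genes most correlated with each over the arrays, and up to 2 rises and 2 falls past the threshold on day 11 from each list; Rbp2, Got2, Acss2, Acbd3, Pnpla2, Acot1, Acadl, Acadm, Rarg and single markers were named after their values were seen. Promoter sequence is not reported here. Neighbouring genes were read from RefSeq's gene table for GRCm38.p6 with Python 3.11.15, and figures were drawn with matplotlib 3.10.9.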

Additional observations from a re-analysis of the deposited data

Results flagged for a closer look

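Fabp5 and Dbi differed between days 1 and 3 of treatment, by the direct test between those days, in which days in lactic acid and time in culture cannot be told apart. Fabp5 differed by -2.15 and Dbi by -1.25 on the log2 scale, each lower on all 3 arrays of day 3 than on all 3 of day 1; without replicate 1 of day 1 the differences were -2.48 and -1.42.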

How the results depend on the processing

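The alternatives changed the probe set rule, the filter on dim genes (40%), the scaling, the variance model, the array weights, the arrays in the fit and the threshold, used a replicate block, and left out single arrays. Fabp5 and Dbi kept their direction and call against control on days 3 to 11 and between days 1 and 3 under each of the 20 alternatives run. On day 1 Dbi lost its call with only the 6 arrays compared and under a 2-fold minimum, each leaving 0 members called, and its adjusted p ran from 4.98e-09 to 0.372 over the alternatives. With array weights, a fit that stopped before it converged, the members called were 2 on day 1, 4 on days 5 and 7, 6 on day 9, 1 between days 3 and 11 and 6 in the F test. The fit with array weights also called more of all genes, 11705 of 19938 on day 9 against 5414 in the main fit. Its 6 members called on day 9 thus stand against a far higher background. Over the 20 alternatives the count of members called also reached 3 on day 4 and 3 between days 1 and 3. Between days 3 and 11, 1 member was called with only the arrays compared and without replicate 1 of day 1, where 24.9% of all genes were called. It was also 1 without the 3 arrays of highest median over all probe sets (replicate 1 of day 1 and replicates 2 and 3 of day 9). This last setting, the omission of day 1 replicate 1 and an F test without day 1, which called 1 member, were chosen after the data were seen. Leaving out single arrays of the groups compared changed no member count. Cd36 on day 11 turned from 0.05 to -0.00607 under cyclic loess, and leaving out single arrays gave -0.011 to 0.096. The filter removed Cd36, Fabp3, Fabp4 and Crabp2. The replicate block kept 1 member called on day 1 and 2 on each later day; of the named genes it ended the calls of Eci2 and Ppargc1b, which arrays centred on their medians also ended, together with that of Ppard. Genes called on day 1 numbered 960, and 6 to 8640 over the alternatives; on day 11 they numbered 5143, and 1285 to 8337. For the other days against control they ranged from 1189 (day 3, 2-fold minimum) to 11705 (day 9, array weights), between days 1 and 3 from 1294 to 10894, and between days 3 and 11 from 332 to 6869; the F test gave 6188 to 17803. Causes were not tested. Signal near background limits the 5 members of low signal.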
